A study of Mus musculus with 24 samples.

Results

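The insulin-like growth factor (IGF) genes described here are a list of 10 named genes: the ligands Igf1 and Igf2, the receptors Igf1r and Igf2r, and the binding proteins Igfbp2, Igfbp3, Igfbp4, Igfbp5, Igfbp6 and Igfbp7. They were taken by symbol from 3 tables that together list 25471 genes. All 10 had a row in both E13.5 tables, pericyte and endothelial, and 9 had one for E11.5 pericytes, where Igfbp6 was not analysed. Because Igfbp6 carried no adjusted p at E13.5, 9 members entered the test in each table.

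IGF1 and IGF2 are secreted peptides that act through the tyrosine kinase receptor IGF1R, and IGF2R removes IGF2 from the cell surface and carries it to lysosomes. The binding proteins hold the ligands outside the cell, where they can prolong their life, limit their access to the receptor or deliver them locally, and proteases release the ligands again. IGF2 is the main IGF of the mouse embryo and in most tissues, though not all, is expressed from the paternal allele. In the developing brain it comes largely from meninges, vessels and choroid plexus.

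RNA came from cells sorted from brains of mouse embryos in 24 libraries. All embryos carried Pdgfrb-Cre, which is active in pericytes and also in other mural and mesenchymal cells, and 1 copy of the ZsGreen reporter (Zs/+). Controls were Alk5(flox/+), with 1 floxed copy of the gene for the TGF-beta type I receptor ALK5 (Tgfbr1), and mutants were Alk5(flox/flox), with 2, so the controls carried Cre and a floxed copy too. Pericytes were sorted at E11.5 (4 control, 4 mutant) and again at E13.5 (4 control, 4 mutant), and endothelial cells at E13.5 (5 control, 3 mutant), with no treatment, and the labels give the mutants the disease state GMH-IVH. The values are the authors' group means of normalized read counts, so depth and spread per library are unknown here, and each standard error (SE) of a log2 fold change (log2 of mutant over control) is the one that the authors' ratio and p imply.

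Tgfbr1 measured over the whole gene had log2 fold changes of mutant to control of 0.43 (SE 0.27), 0.03 (SE 0.08) and -0.11 (SE 0.23) in the E11.5 pericyte, E13.5 pericyte and endothelial tables, which checks the deletion only in part because the floxed exons were not separated. Of 20 endothelial markers the endothelial table listed 19, with a summed control mean of 259531, and 18 were in that of E13.5 pericytes, with 7517; the tables were normalized separately. Of 20 pericyte markers the same tables listed 18 (summed control mean 8704) and 19 (38571). Markers of fibroblasts and meninges, cells that the Cre can also mark, summed to 341988 in the E13.5 and 111160 in the E11.5 pericyte controls, so those sorts also held RNA of these marker genes. In E13.5 pericytes, Xist (RNA of the inactive X chromosome) had means of 36145 in controls and 5.73 in mutants in the authors' deposited table, so sex and genotype cannot be told apart there. For E11.5 pericytes and endothelial cells Xist was not listed, so the sex make-up of those groups is unknown here.

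Positions are from GENCODE on mm10. Igfbp2 (chr1:72824503-72852474, plus strand) and Igfbp5 (chr1:72857932-72874884, minus strand) face each other across 5457 bases with no annotated gene between them. Igf2 (chr7:142650766-142666816, minus strand) lies 72622 bases from the imprinted non-coding gene H19. Igfbp3 is at chr11:7206086-7213923 and Igfbp7 at chr5:77349240-77408041, both on the minus strand, and Igfbp7 and Igf2 overlap genes on the opposite strand, such as Polr2b and Igf2os. The sources used here do not say whether counting used the strand, so reads from such overlaps cannot be told apart.

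The 5 members whose RNA fell at E11.5 (Igf2, Igfbp2, Igfbp3, Igfbp5 and Igfbp7) are represented below by the 150 bases before a RefSeq transcription start (GRCm38.p6), shown because these genes changed together in mutants for a receptor that signals through DNA-binding SMAD proteins. Windows that overlap an annotated exon were left out, which removes Igfbp5, the second window of Igfbp2 and the middle pair of the 4 starts of Igf2. Capitals mark the SMAD box CAGAC or its complement GTCTG.
Igf2, most upstream start, chr7:142666817-142666966, minus strand: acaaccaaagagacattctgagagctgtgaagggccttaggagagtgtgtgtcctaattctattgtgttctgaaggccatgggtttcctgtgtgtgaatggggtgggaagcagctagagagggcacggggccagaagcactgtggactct
Igf2, most downstream start, chr7:142657497-142657646, minus strand: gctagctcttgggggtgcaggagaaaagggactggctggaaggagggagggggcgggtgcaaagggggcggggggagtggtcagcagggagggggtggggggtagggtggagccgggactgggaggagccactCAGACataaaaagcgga
Igfbp2, first start, chr1:72824330-72824479, plus strand: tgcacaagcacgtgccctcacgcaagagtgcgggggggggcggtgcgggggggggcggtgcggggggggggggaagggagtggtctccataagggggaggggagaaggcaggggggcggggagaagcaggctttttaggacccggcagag
Igfbp3, chr11:7213924-7214073, minus strand: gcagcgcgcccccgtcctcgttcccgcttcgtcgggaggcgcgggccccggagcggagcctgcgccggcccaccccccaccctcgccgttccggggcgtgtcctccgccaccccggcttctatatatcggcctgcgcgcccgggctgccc
Igfbp7, chr5:77408046-77408195, minus strand: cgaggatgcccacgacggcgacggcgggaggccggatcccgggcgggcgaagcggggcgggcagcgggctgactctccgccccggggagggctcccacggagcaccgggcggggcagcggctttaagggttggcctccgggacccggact
The motif was present in 1 of these 5 windows, that of the most downstream Igf2 start, where it begins 17 bases before the start. Among 32851 promoter windows of the same length 27.7% held it on either strand. The longer SMAD palindrome GTCTAGAC was in none of the 14 windows of the 10 members and in 0.0731% of all windows. Those 14 windows held a match to CAGAC or GTCTG in 3 of the 4 starts of Igf2 and 1 of the 2 of Igfbp2. A match is a run of letters and not a measured binding site. The windows of Igfbp3 and Igfbp7 were rich in G and C (78.7% and 78.0%, against a median of 54.0% over all windows). This was not particular to members that fell. The first window of Igfbp2 had 72.0%, and the printed Igf2 windows had 52.0% and 66.7%. Among members not called at E11.5, Igf1r had 78.7%, Igfbp4 73.3%, Igf2r 70.7% and Igf1 54.0%.

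Igf2 was among the most abundant RNAs of every sort. Its control mean ranked 64 of 21844 genes in E11.5 pericytes, 3 of 23775 in E13.5 pericytes and 60 of 20520 in E13.5 endothelial cells. Across tables, levels are given only as a share: Igf2 made up 1016, 6579 and 1187 per 1000000 of the summed control means. Igfbp5 made up 279 per 1000000 in E11.5 pericytes, 1561 in E13.5 pericytes and 93.0 in endothelial cells. Igfbp4 was at 539, 982 and 334 per 1000000. Igfbp3, a main carrier of IGFs in blood, had its highest share in endothelial cells, with 11.4, 46.1 and 228 per 1000000. Igfbp7, a binding protein with low affinity for IGFs and a known product of vessels, was at 5.35, 8.76 and 17.8 per 1000000. Igf1 ranged less, at 363, 274 and 146 per 1000000, and Igfbp6 was low in the E13.5 tables, with control means of 11.2 in pericytes and 7.49 in endothelial cells in the authors' deposited tables.

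Different genes were compared only per kb of their longest annotated transcript. In E11.5 control pericytes Igfbp2 led with a level of 5500 normalized counts per kb, followed by Igf2 (3291) and Igfbp4 (2153). Igf1 (788) and Igfbp5 (711) came next and differed by 1.11-fold, which is within 2 errors if control and mutant groups vary alike. Igf1r (318) and Igf2r (270) were also within 2 errors of each other, as were Igfbp3 (72.0) and Igfbp7 (68.2) at the bottom. In E13.5 control pericytes Igf2 stood apart at 35394 per kb, 5.36-fold above Igfbp5 (6604), and Igfbp5 and Igfbp4 (6511) could not be ordered. Igfbp2 (5245), Igf2r (1235), Igf1 (987), Igf1r (771), Igfbp3 (484), Igfbp7 (185) and Igfbp6 (10.1) followed, each over 2 errors below the one before. In control endothelial cells Igf2 (5298 per kb) led again, Igfbp3 (1988), Igfbp4 (1836) and Igfbp2 (1483) followed with neighbours within 2 errors, then Igf1 (436). Igf1r (344), Igfbp5 (327), Igfbp7 (312.4) and Igf2r (312.3) could not be ordered in endothelial cells, and Igfbp6 (6.74) was lowest. The order depends on the length used. Per kb of merged exons, endothelial Igf1 (310.1) was below Igfbp5 (326.6), Igf1r (234) ranked 9, and Igfbp4 led Igfbp3. At E11.5 Igfbp5 (710.6) was then above Igf1 (561), Igf2r above Igf1r and Igfbp7 above Igfbp3. The order in E13.5 pericytes was the same with either length.

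**Figure D1:**
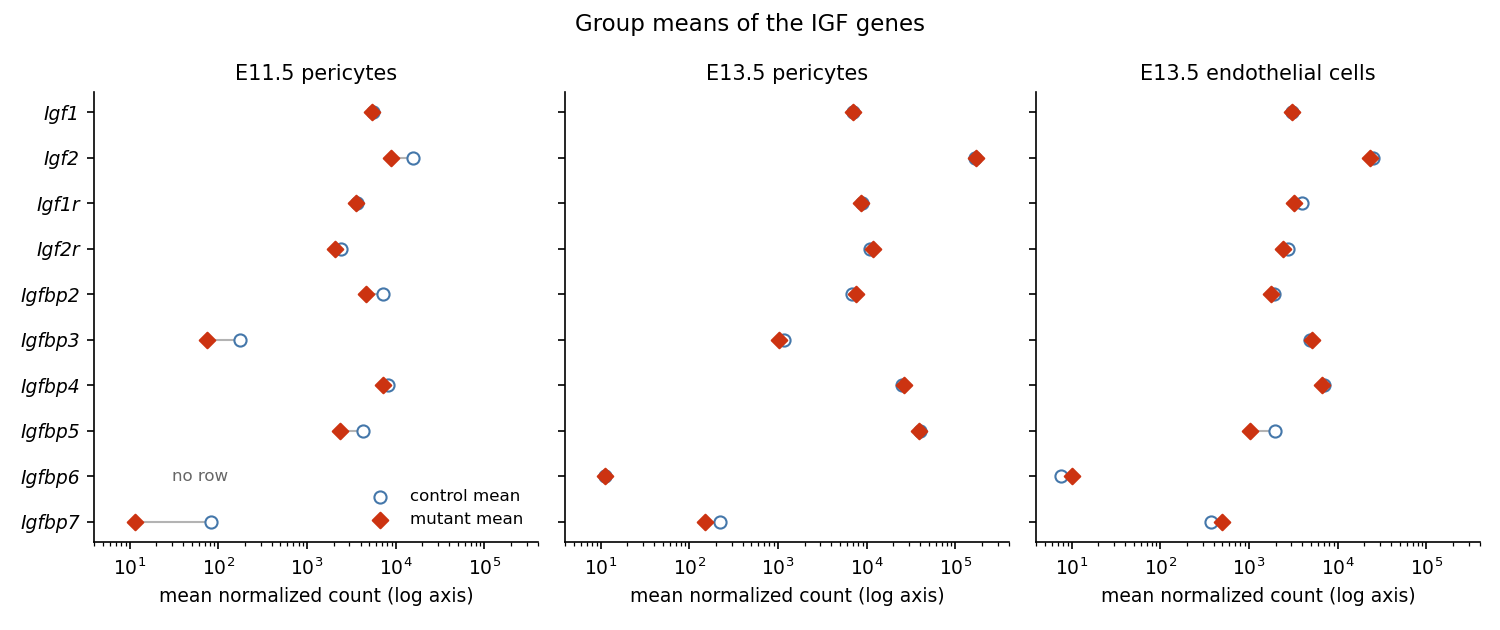
The authors' group means of the 10 IGF genes, in normalized counts on a log axis, for control (open circles) and mutant (filled diamonds) samples of each sort, joined by a grey line. Lines are visibly long at E11.5 for Igf2, Igfbp2, Igfbp3, Igfbp5 and Igfbp7 (81.8 to 11.4), and in endothelial cells for Igfbp5 (1961 to 1025).

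The mixture of binding protein transcripts differed between the sorts, as a description without a test. Per kb, Igfbp2 held 64.7% of the summed binding protein level in E11.5 control pericytes, Igfbp4 25.3% and Igfbp5 8.36%. In E13.5 control pericytes the sum was spread over Igfbp5 (34.7%), Igfbp4 (34.2%) and Igfbp2 (27.6%). In control endothelial cells it was spread over Igfbp3 (33.4%), Igfbp4 (30.9%) and Igfbp2 (24.9%), with Igfbp7 at 5.25%. In mutants Igfbp4 held 32.2% and Igfbp2 60.4% in E11.5 pericytes, Igfbp5 33.0% and Igfbp4 34.6% in E13.5 pericytes, and Igfbp3 37.0% and Igfbp5 2.95% in endothelial cells.

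**Figure D2:**
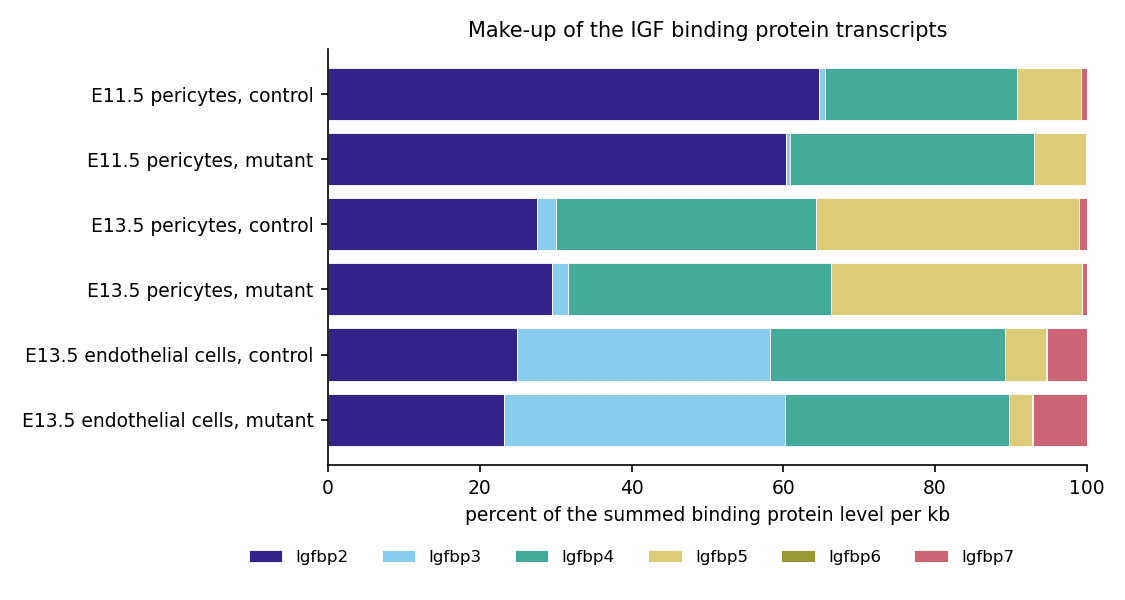
Percent of the summed level per kb held by each IGF binding protein, 1 stacked bar for the control and 1 for the mutant group of each sort. Igfbp2 fills most of the E11.5 bars (64.7% and 60.4%), and the widest part is Igfbp5 or Igfbp4 in E13.5 pericytes and Igfbp3 in endothelial cells (33.4% and 37.0%).

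In E11.5 pericytes, RNA of the ligand gene Igf2 and of 4 binding proteins was lower in mutants. Of 9 members tested 5 fell and 0 rose, where 2.70% of all 19301 tested genes fell and 0.642% rose by the same rule, a false discovery rate (FDR, the authors' adjusted p) under 0.05. The median log2 fold change of the 9 members was -0.64, against 0.00 over all tested genes. Among the 4826 tested genes of highest level, which include 7 of the 9 members, 1.76% fell and the median was 0.10. Ratios ran lower at low levels. Among the 4825 genes of lowest level, which include Igfbp7, 2.3% fell and the median was -0.231. In the next 4825, which include Igfbp3, 4.39% fell and the median was -0.068. By unadjusted p under 0.05 the count over the 9 members was also 5, where 17.7% of all genes passed in either direction.

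Among the ligands, Igf2 had means of 15538 in controls and 8753 in mutants at E11.5 in the authors' deposited table. That is a log2 fold change of -0.83 (SE 0.26, FDR = 0.0425), or a 1.78-fold fall. Igf1 had means of 5556 and 5382, with a log2 fold change of -0.05 (SE 0.20, FDR = 0.934) in the authors' deposited table. The ligand that fell was thus the more abundant of the pair, and its rank among all genes went from 64 to 172.

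Neither receptor passed the threshold at E11.5. Igf1r, which transmits the signal, had means of 3628 and 3599 and a log2 fold change of -0.01 (SE 0.18, FDR = 0.981) in the authors' deposited table. Igf2r, which clears IGF2, had means of 2397 and 2044 and a log2 fold change of -0.23 (SE 0.15, FDR = 0.426) in the authors' deposited table.

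Of the 5 binding proteins measured at E11.5, all but Igfbp4 fell. Igfbp7 had means of 81.8 in controls and 11.4 in mutants in the authors' deposited table, a 7.20-fold fall (log2 fold change -2.85, SE 0.44, FDR = 3.96e-07) at a low level. Igfbp5, which binds matrix as well as IGFs, went from 4268 to 2366 (log2 fold change -0.85, SE 0.15, FDR = 2.87e-05) in the authors' deposited table. Its neighbour Igfbp2 went from 7188 to 4612 (log2 fold change -0.64, SE 0.15, FDR = 0.00326) in the authors' deposited table. The fall of Igfbp3 was 2.33-fold, from a mean of 174 to 74.8 (log2 fold change -1.22, SE 0.38, FDR = 0.0410), in the authors' deposited table. Igfbp4 had means of 8248 and 7203 and a log2 fold change of -0.20 (SE 0.12, FDR = 0.371) in the authors' deposited table. Polr2b, which overlaps Igfbp7 on the other strand, had a log2 fold change of 0.42 (SE 0.23, FDR = 0.308), and Igf2os, antisense to Igf2, one of -0.05 (SE 0.19, FDR = 0.919), in the authors' deposited table.

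**Figure D3:**
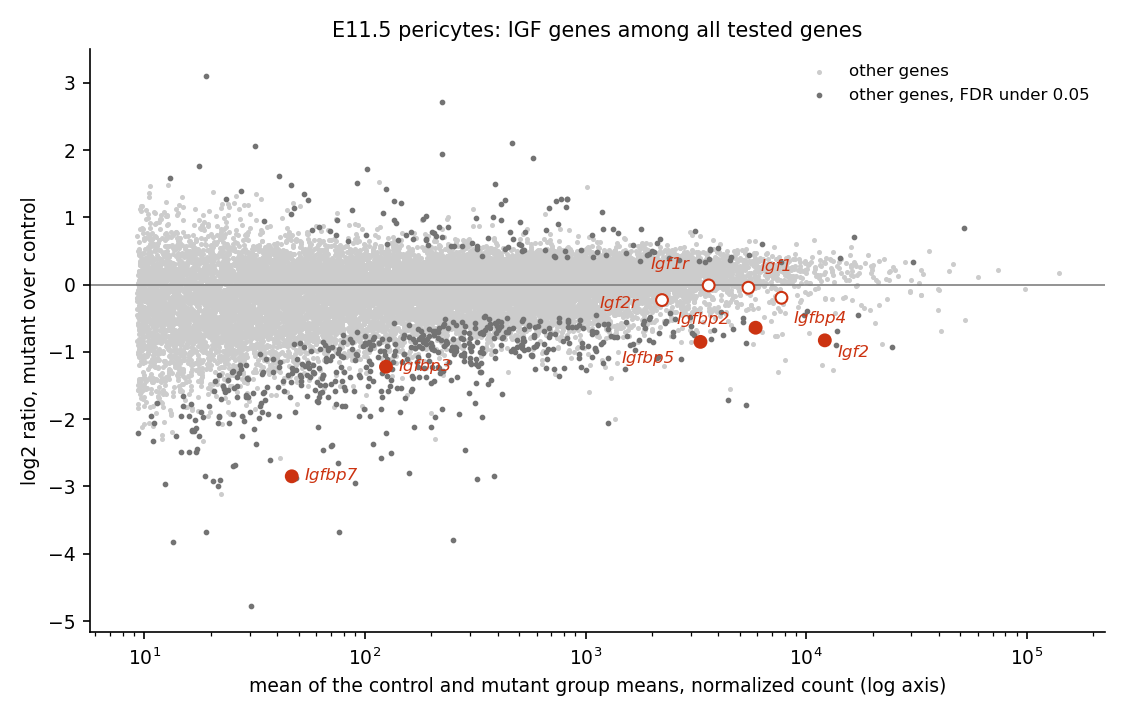
Log2 ratio of mutant to control against the mean level (normalized counts, log axis) for every gene tested in E11.5 pericytes (light grey, or dark grey where the FDR is under 0.05), with the 9 IGF genes in red, filled where they passed. Igf2, Igfbp2 and Igfbp5 lie below 0 at high levels (-0.83, -0.64 and -0.85), and Igfbp7 (-2.85) at a low level.

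These 5 calls depend on the spread of the E11.5 table. When every SE was multiplied by 1.51, the factor that gives its test statistics the median of a standard normal, the adjusted p were 0.0569 for Igfbp7, 0.217 for Igfbp5, 0.713 for Igfbp2 and 0.995 for Igf2 and Igfbp3, and 5 of all 19301 genes passed in place of 646; this setting was added after the data were seen. Marker lists of several cell types had lower summed means in the same E11.5 mutants. For comparison, 9734 of all 19301 tested genes had a log2 fold change below 0, with 2.70% called lower and 0.642% higher. The summed mean of 16 endothelial markers was 3971 in controls and 2741 in mutants (15 of 16 with a log2 fold change below 0 and 1, Erg, called). For 15 fibroblast and meninges markers it was 111160 and 84084 (13 of 15 below 0, 6 lower and 1 higher by the call). For 19 pericyte markers it was 22494 and 18237 (17 of 19 below 0, 5 called). For 7 choroid plexus markers it was 2814 and 1134 (7 of 7 below 0, 0 called), and for 19 myeloid markers 3393 and 1842 (19 of 19 below 0, 4 called). For 10 cartilage and bone progenitor markers it was 37236 and 34909 (9 of 10 below 0, 3 called), and the 3 called, Runx2, Dlx5 and Dlx6, had log2 fold changes of -3.79, -2.66 and -3.68. Smooth muscle markers summed to 4551 and 4714 (6 of 8 above 0, with Des called higher). For 3 erythroid markers it was 89.1 and 34.2 (3 of 3 below 0, 0 called). None of these markers is listed at 0, and the endothelial markers Pecam1, Cldn5, Tie1 and Slco1a4 were not analysed at this stage. Their part in the fall of the IGF genes was not tested, and in bulk RNA fewer cells of a type and less RNA per cell cannot be told apart.

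In E13.5 pericytes 0 of 9 members passed in either direction by the authors' DESeq2 test, where 0.164% of 20084 genes fell and 0.224% rose. By unadjusted p under 0.05, 1 member passed, Igfbp7, where 4.06% of all genes did. Igfbp7 had means of 222 in controls and 150 in mutants in the authors' deposited table, a log2 fold change of -0.57 (SE 0.16, FDR = 0.0957). Igf2, at means of 167133 and 169709, had a log2 fold change of 0.02 (SE 0.08, FDR = 1.00) in the authors' deposited table. Igf1 had means of 6963 and 7038 and a log2 fold change of 0.02 (SE 0.12) in the authors' deposited table. The receptors Igf1r and Igf2r had log2 fold changes of -0.05 (SE 0.07) and 0.11 (SE 0.12).

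The other binding proteins at E13.5 were measured with small errors, apart from Igfbp3 and Igfbp6. Igfbp5 had means of 39662 and 39001 and a log2 fold change of -0.02 (SE 0.15) in the authors' deposited table. Igfbp2 had means of 6855 and 7582 and a log2 fold change of 0.15 (SE 0.09) in the authors' deposited table. Igfbp4 had a log2 fold change of 0.06 (SE 0.06) and Igfbp3, at means of 1171 and 1034 in the authors' deposited table, one of -0.18 (SE 0.37). Igfbp6 had means of 11.2 and 11.1 in the authors' deposited table and no adjusted p. The median log2 fold change over the 9 members tested was 0.02, against 0.00 over all genes. By sign, 10121 of all 20084 tested genes were above 0 and 9963 below, with 0.164% called lower and 0.224% higher. The summed mean of the fibroblast and meninges markers was 341988 in controls and 355401 in mutants at this stage, and that of 18 endothelial markers was 7517 and 7546 (15 of 18 above 0, with Erg called lower). For 19 pericyte markers it was 38571 and 40403 (13 of 19 above 0, with Rgs5 called lower and Cd248 and Cox4i2 higher), and for 8 smooth muscle markers 6702 and 7809 (8 of 8 above 0, with Des called higher). For 11 cartilage and bone progenitor markers it was 85480 and 74777 (5 of 11 below 0, 0 called). For 7 choroid plexus markers it was 7674 and 6243 (6 of 7 below 0, 0 called) and for 6 erythroid markers 471 and 2073 (6 of 6 above 0, 0 called). Their part in the Igfbp7 means, and that of the Xist gap, was not tested.

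In the E13.5 endothelial sort, 0 of 9 members passed in either direction by the authors' DESeq2 test, where 2.19% of 18132 genes fell and 5.11% rose. By sign alone, 9373 of these genes had a log2 fold change below 0 and 8759 above. The summed means of the groups differed by 0.13 on the log2 scale, and with equal sums 634 genes rose and 1565 fell in place of 926 and 397. Those sums, 21082886 in controls and 22993850 in mutants, include 8 erythroid markers with 63576 and 1710961. By unadjusted p under 0.05, 2 members passed, Igf1r and Igfbp7, a share near the 20.0% of all genes that did. Igf1r had means of 3930 and 3198 (log2 fold change -0.30, SE 0.12, FDR = 0.102) in the authors' deposited table. With the groups scaled to equal summed means, its log2 fold change was -0.42 with an FDR of 0.00707. Igfbp7 had means of 375 and 494 (log2 fold change 0.40, SE 0.19, FDR = 0.189) in the authors' deposited table. Beside it, 20 of 20 myeloid markers had a log2 fold change above 0 (3 called), with summed means of 29142 and 43983, and their part was not tested. Igfbp5 had the largest fold between means among the 9 members tested, with 1961 and 1025, but a log2 fold change of -0.94 with an SE of 0.54 (FDR = 0.325) in the authors' deposited table. The summed mean of 11 cartilage and bone progenitor markers in the same endothelial libraries was 11888 in controls and 3282 in mutants, with 6 of 10 tested below 0 and 0 called, and their part in the Igfbp5 means was not tested.

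The ligands of the endothelial sort differed less than their errors. Igf2 had means of 25020 and 22982 (log2 fold change -0.12, SE 0.23) and Igf1 of 3071 and 3081 (log2 fold change 0.00, SE 0.21, or -0.12 with equal sums) in the authors' deposited table. Igfbp3, which with Igfbp4 had the highest binding protein levels per kb of these cells, had means of 4813 and 5182 (log2 fold change 0.11, SE 0.23, or -0.019 with equal sums) in the authors' deposited table. Igf2r, Igfbp2 and Igfbp4 had log2 fold changes of -0.21 (SE 0.19), -0.14 (SE 0.29) and -0.10 (SE 0.16). Igfbp6 had means of 7.49 and 10.1 in the authors' deposited table and no adjusted p. The median over the 9 members tested was -0.12, against -0.01 over all genes. The summed mean of 19 endothelial markers was 259531 and 220409 (15 of 19 below 0, with Kdr called lower), and that of 18 pericyte markers 8704 and 11400 (13 of 18 below 0, with Ifitm1 and Slc6a13 called higher). In these libraries 8 of 8 erythroid markers rose, and their summed mean was 63576 in controls and 1710961 in mutants, and the part of these lists in the IGF values was not tested.

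**Figure D4:**
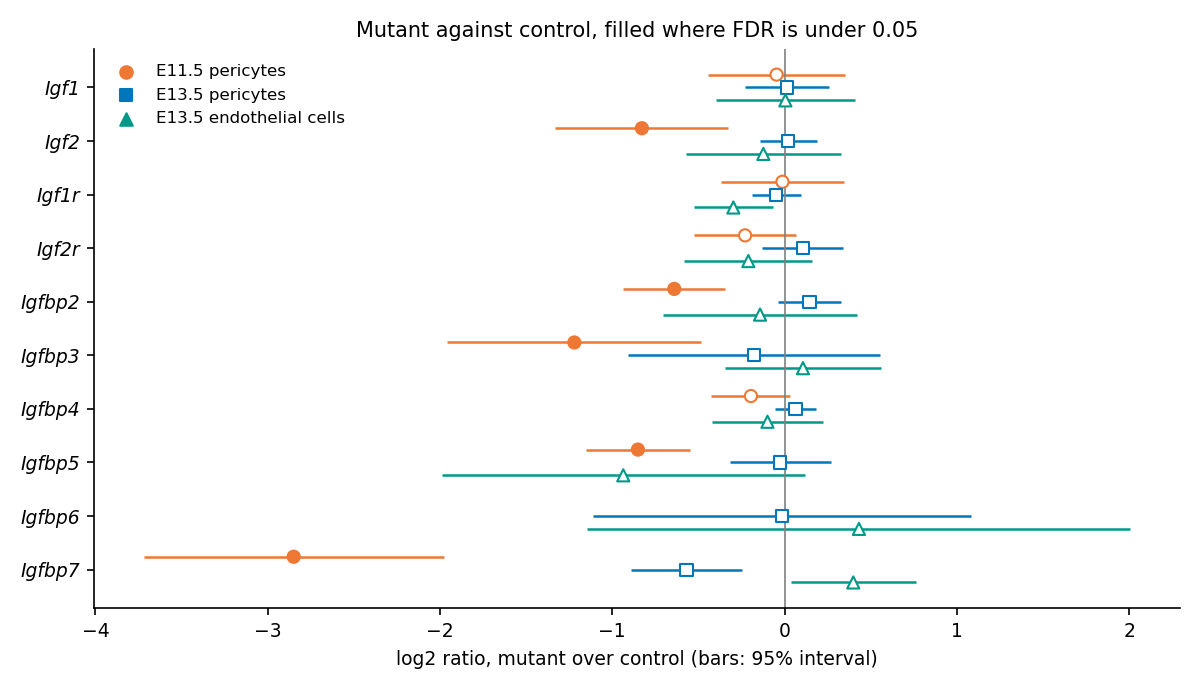
Log2 ratio of mutant to control with its 95% interval from the implied SE for each IGF gene in E11.5 pericytes (circles), E13.5 pericytes (squares) and E13.5 endothelial cells (triangles), filled where the FDR is under 0.05. All 5 filled points are E11.5 pericytes, and the Igfbp7 points lie on opposite sides of 0 in E13.5 pericytes (-0.57) and endothelial cells (0.40).

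Whether the mutant to control ratio differed between the stages was tested on the difference of the pericyte log2 fold changes, E13.5 minus E11.5. Of 9 members 3 passed (Benjamini-Hochberg adjusted p under 0.05 over 18267 genes), where 1.43% of all genes did. The difference was 2.28 (SE 0.47, FDR = 0.00103) for Igfbp7, 0.79 (SE 0.18, FDR = 0.00377) for Igfbp2 and 0.83 (SE 0.22, FDR = 0.0190) for Igfbp5. For Igf2 it was 0.85 (95% interval 0.32 to 1.38), with an FDR of 0.0772, and for Igfbp3 1.04 (0.00 to 2.08, FDR = 0.374). For Igf1 the interval was -0.40 to 0.53 and for Igf1r -0.42 to 0.35. With the SE rescaled as above, adjusted p were 0.512 for Igfbp7, 0.542 for Igfbp2 and 0.656 for Igfbp5. The same test between cell types, endothelial cells minus pericytes at E13.5, passed for 1 of 9 members, where 3.94% of 16920 genes did. That member was Igfbp7, with a difference of 0.97 (SE 0.25, FDR = 0.00543, or 0.147 with the SE rescaled). Both tests use the E13.5 pericyte ratios, in which sex and genotype cannot be told apart.

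Genes around the pathway were taken from lists drawn up for this work. Every gene of these lists called at E11.5 had a larger p than Igfbp7 in the authors' DESeq2 test. The adjusted p of Igfbp7 was 0.0569 with the SE rescaled as above, so none of these E11.5 calls passed with that rescaling. The 3 IGF2 mRNA-binding proteins, which bind and stabilise Igf2 and other transcripts, had positive log2 fold changes at E11.5 in the comparison where Igf2 fell. Igf2bp1 rose from 12465 to 20461 (log2 fold change 0.72, SE 0.19, FDR = 0.0109) and Igf2bp3 from 3014 to 4290 (log2 fold change 0.51, SE 0.13, FDR = 0.0106) in the authors' deposited table. Igf2bp2 had a log2 fold change of 0.07 (FDR = 0.720). Of the 3 genes 2 thus rose, where 0.642% of all tested genes did. At E13.5 the log2 fold changes of Igf2bp1, Igf2bp2 and Igf2bp3 were 0.06, 0.00 and 0.16 in pericytes, with 0 passing (1, Igf2bp3, by unadjusted p under 0.05), and -0.40, -0.30 and -0.14 in endothelial cells, where Igf2bp1 fell (FDR = 0.0497 in the authors' deposited table). Of all genes, 0.164% fell and 0.224% rose in these pericytes (4.06% by unadjusted p), and 2.19% fell in endothelial cells.

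Proteases that cleave the binding proteins, and inhibitors of those proteases, fell for 3 of 8 genes tested at E11.5 and rose for 0. Of all genes tested there, 2.70% fell and 0.642% rose. The 3 of the list that fell were Stc1 and Stc2, which encode stanniocalcins that inhibit the protease PAPP-A, and Adam12, a metalloprotease. Their log2 fold changes were -0.94 (SE 0.18), -1.70 (SE 0.51) and -1.51 (SE 0.42), and the authors' deposited table gave an FDR of 0.000102, 0.0311 and 0.0190. Pappa, which encodes PAPP-A, a protease of IGFBP4 and IGFBP5, had means of 175 and 178 at E11.5 in the authors' deposited table. At E13.5 Pappa was the 1 of 8 genes that rose in pericytes, from 1311 to 1818 (log2 fold change 0.47, SE 0.11, FDR = 0.00429), in the authors' deposited table. The related Pappa2 had means of 3007 and 2431 in the same pericytes (log2 fold change -0.31, SE 0.09, FDR = 0.189) in the authors' deposited table. In endothelial cells 1 of 6 tested fell, Htra3, from 3789 to 2706 (log2 fold change -0.49, SE 0.13, FDR = 0.00415), in the authors' deposited table. Of all genes, 0.224% rose in E13.5 pericytes and 2.19% fell in endothelial cells. By unadjusted p under 0.05, 6 of 8, 2 of 8 and 2 of 6 passed in E11.5 pericytes, E13.5 pericytes and endothelial cells. The shares of all genes were 17.7%, 4.06% and 20.0%.

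Downstream of the receptors, 0 of 31 genes for receptor substrates, adaptors and the PI3K-AKT pathway passed at E11.5. Of all genes, 2.70% fell and 0.642% rose there, and the list had a median of -0.10 (log2). At E13.5 0 of 31 passed in pericytes, where 0.164% of all genes fell and 0.224% rose. In endothelial cells, where 2.19% of all genes fell and 5.11% rose, 0 of 30 rose and 2 fell. These were the adaptor gene Grb10, from 33311 to 21323 (log2 fold change -0.64, SE 0.22, FDR = 0.0456), and the PI3K subunit gene Pik3r3 (log2 fold change -0.35, SE 0.12, FDR = 0.0438), in the authors' deposited table. By unadjusted p under 0.05, 6 of the 31 passed at E11.5 and 2 at E13.5 in pericytes, and 10 of 30 in endothelial cells, beside 17.7%, 4.06% and 20.0% of all genes. Of the other IGF and insulin genes 0 of 3 passed in each table by the authors' DESeq2 test, beside the shares of all genes just given. By unadjusted p under 0.05, 2 of 3 passed at E11.5 and 0 in either E13.5 table. The insulin receptor gene Insr had log2 fold changes of -0.44 (FDR = 0.227), 0.00 and -0.23 (FDR = 0.467) in the E11.5 pericyte, E13.5 pericyte and endothelial tables. Its relative Insrr had one of -1.27 at E11.5 (FDR = 0.0567) and -0.20 in E13.5 pericytes. Igfbpl1 had log2 fold changes of 0.00, 0.07 and 0.46, Igfbp1 was measured only in endothelial cells (-0.36), and Igfals, measured in the pericyte tables, had no adjusted p. Ins1 and Ins2 were not analysed here.

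Igf2 belongs to a group of imprinted genes of fetal growth. Of 25 such genes other than Igf2, 4 fell and 1 rose at E11.5, where 2.70% of all tested genes fell and 0.642% rose. The list had a median of -0.35 (log2). Those that fell were Cdkn1c, a growth inhibitor of the cell cycle (log2 fold change -1.72, SE 0.34, FDR = 0.00022), the transcription factor gene Plagl1 (-0.71, SE 0.21, FDR = 0.0270), the non-coding Meg3 (-0.46, SE 0.11, FDR = 0.00559) and the proteoglycan gene Dcn (-1.09, SE 0.34, FDR = 0.0417) in the authors' deposited table. Mest rose from 37295 to 66698 (log2 fold change 0.84, SE 0.16, FDR = 7.84e-05) in the authors' deposited table. H19, expressed from the maternal allele of the locus of Igf2, had means of 11026 and 5086, a log2 fold change of -1.12 (SE 0.36) and an FDR of 0.0529 in the authors' deposited table. In E13.5 pericytes 1 of 25 rose, where 0.224% of all genes did. This was Slc38a4 (log2 fold change 0.26, SE 0.06, FDR = 0.0194), and the authors' deposited table gave H19 means of 136377 and 130125. In endothelial cells 3 of 24 fell, where 2.19% of all genes did. They were Peg10, Plagl1 and Grb10, with log2 fold changes of -0.95, -0.77 and -0.64, while H19 had one of -0.08 (SE 0.27). By unadjusted p under 0.05, 12 of 25, 2 of 25 and 4 of 24 passed in E11.5 pericytes, E13.5 pericytes and endothelial cells. Of all genes, 17.7%, 4.06% and 20.0% did. Dcn is also among the fibroblast and meninges markers given above, and Grb10 also among the adaptors.

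**Figure D5:**
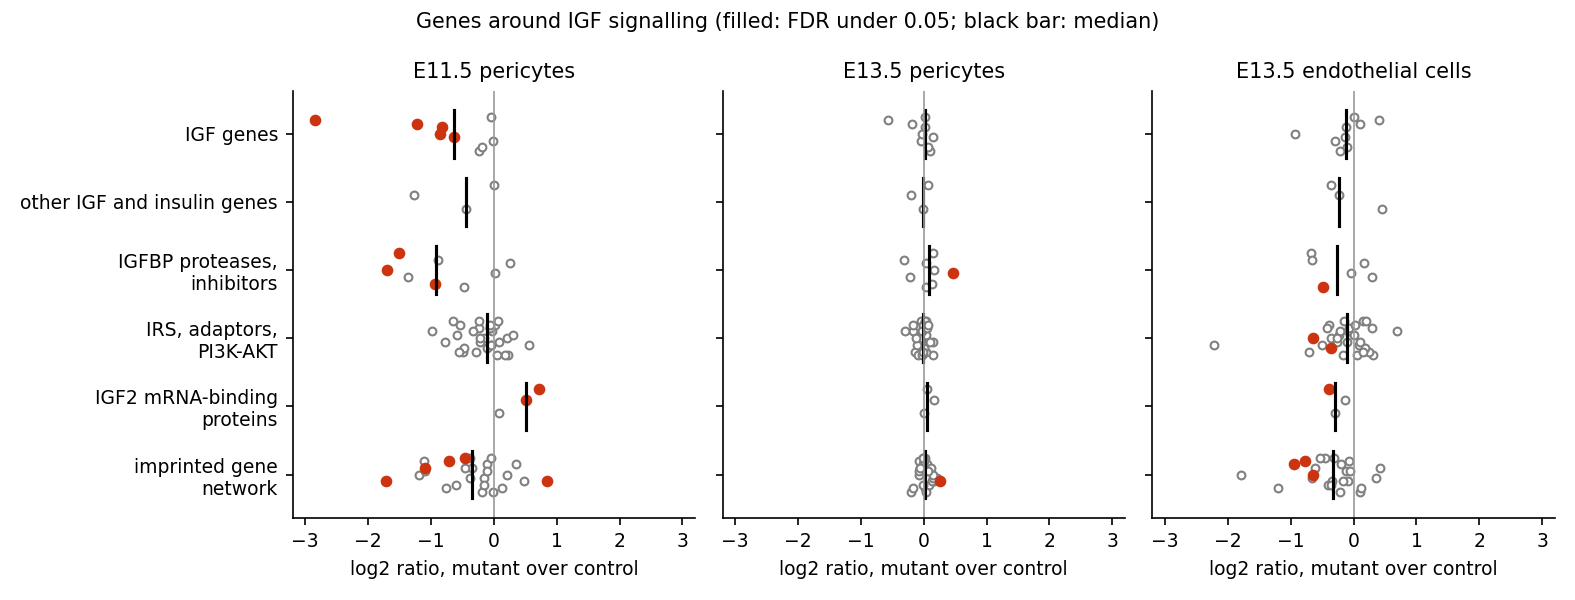
Log2 ratio of mutant to control for the tested genes of each list in the 3 comparisons, 1 point per gene, filled where the FDR is under 0.05, with a black bar at the list's median. At E11.5 the IGF genes (5 filled) and the protease list (3 filled) lie to the left and the IGF2 mRNA-binding proteins (2 filled) to the right, and few points are filled at E13.5.

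The genes most like a member were found over the 6 group means, each taken as log2(mean + 1) relative to the gene's own average, among 7358 genes above the median level of every table. The distance is the root of the summed squared differences, and the 6 means come from separately normalized tables, so this is a description. Itpripl2 (0.361), Adamts9 (0.666) and the fibronectin gene Fn1 (0.755) were nearest to Igf2. Ptprd (0.613), the matrix gene Postn (0.726) and Adamts12 (0.818) were nearest to Igfbp5. For Igfbp3 they were Plxnd1 (1.12), Slc7a5 (1.25) and S1pr1 (1.47), and for Igfbp7 Nr4a1 (1.36), Tnfaip3 (1.42) and Abca1 (1.44). This distance grows with a gene's range, so it does not rank members by how close their matches are. The nearest genes were Ppp2r5d (0.154), Nsmf and Nol9 for Igf1, and Heatr5b (0.0903), Kif3b and Golga2 for Igf1r. For Igfbp2 they were Fnta (0.272), Chmp7 and Mbd3. The members differed in range, from 1.2 on the log2 scale between the highest and lowest group for Igf1 to 6.1 for Igfbp3. These ranges and distances are not shares, so they include differences in scale between the separately normalized sorts.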

How the data were processed

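Messenger RNA of flow-sorted cells was made into libraries with the KAPA mRNA HyperPrep kit and read on a NovaSeq instrument, as the labels' protocols say. Partek, Bowtie2 and DESeq2, without versions, and the build mm10 are named in the submitters' processing notes; annotation, counting, filters and model are not given in the sources used here. Each of the 3 deposited tables holds, per the file headers, the authors' p-value and FDR by a step-up method, a mutant over control ratio, a signed form of it (a score, not used) and 1 least-squares mean per group, read as a signal, the mean normalized count. The authors' FDR, recomputed as Benjamini-Hochberg over 19301, 20084 and 18132 genes, is printed as the adjusted p from DESeq2. Because the planned count model needs values per library, the deposited test was used. The log2 of the deposited ratio was divided by the normal deviate of the two-sided p to give the SE, which assumes a Wald test, and differences of log2 ratios were tested against the normal distribution. These p-values measure only the spread between samples, which the labels do not tie to separate litters.

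Members and gene lists were chosen with earlier results of these data known. Named were all members, Tgfbr1, Xist, called genes of 5 pathway lists (at most 6 each), all genes of lists of 7 or fewer where measured, and the 3 nearest genes (those of Igf2r and Igfbp4 are not reported here); genes called in marker lists are mostly given as counts, although the rule names them, and H19, Pappa2, Polr2b and Igf2os were chosen after their values were seen. Of the 11 marker lists, those with called members are given for each table, with some others; skeletal muscle, neural and Schwann cell lists had 0 called in each table, with medians of 0.35, -0.14 and -0.19 at E11.5. The steps were tested on simulated data: of 100 genes given a log2 change of 1, 60%, 79% and 76% were recovered, and of 100 given -2, 95%, 99% and 88%, in E11.5 pericytes (19301 genes), E13.5 pericytes (20084) and endothelial cells (18132), with noise drawn from the same implied SE. Promoter windows come from RefSeq (GRCm38.p6) and lengths and positions from GENCODE M21; all 10 members matched in both. Scripts used matplotlib 3.10.9, scipy 1.17.1, pandas 2.3.3 and numpy 2.4.6 under Python 3.11.15. Alternatives were no filter on low genes, an FDR of 0.1, an absolute log2 ratio of at least 1, centring on the median, equal summed means, merged exon lengths and, added later, a rescaled spread.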

Additional observations from a re-analysis of the deposited data

Results flagged for a closer look

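In pericytes the mutant to control ratio differed between E13.5 and E11.5 for 3 binding protein genes, by the test of the difference of log2 ratios. The differences, E13.5 minus E11.5, were 2.28 for Igfbp7 (-2.85 at E11.5 and -0.57 at E13.5), 0.83 for Igfbp5 (-0.85 and -0.02) and 0.79 for Igfbp2 (-0.64 and 0.15). Between cell types at E13.5 the ratio of Igfbp7 differed by 0.97 on the log2 scale, with -0.57 in pericytes and 0.40 in endothelial cells. All 4 differences rest on SE implied by the authors' p, and none passed with the rescaled spread. All also use the E13.5 pericyte ratios, in which sex and genotype cannot be told apart.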

How the results depend on the processing

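The count of 5 members lower at E11.5 was the same with no filter on low genes, an FDR of 0.1, centring on the median and equal summed means, and these were the same 5 genes. Requiring an absolute log2 ratio of at least 1 left 2 (Igfbp3 and Igfbp7), and the rescaled spread left 0. In E13.5 pericytes 1 member, Igfbp7, was lower at an FDR of 0.1 and 1 with the rescaled spread (adjusted p = 0.0106). In endothelial cells 1, Igf1r, was lower with equal summed means, where log2 ratios turned to -0.12 for Igf1 and -0.019 for Igfbp3. Those sums include the erythroid markers, at 63576 in controls and 1710961 in mutants. Of the differences, 0 members passed by stage and 0 by cell type with the rescaled spread, and the difference of Igf1 by cell type turned to 0.004 on centring. The rescaling multiplies SE by 1.51, 0.864 and 1.48 in E11.5 pericytes, E13.5 pericytes and endothelial cells; what sets these factors was not tested. Per kb of merged exons, Igfbp2 held 59.0% at E11.5, Igfbp5 39.9% in E13.5 pericytes and Igfbp3 31.9% in endothelial cells, where Igfbp4 then led.

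Counts over all genes at E11.5 were 646 as reported, 1139 at an FDR of 0.1, 315 with the minimum log2 ratio and 5 rescaled. They were 78, 17 with the minimum and 142 rescaled in E13.5 pericytes, and 1323, 247 with the minimum, 2199 at equal sums and 49 rescaled in endothelial cells. By stage they were 262, 447 at an FDR of 0.1 and 2 rescaled, and by cell type 666 and 15 rescaled. Equal sums changed the split of higher to lower genes from 926 and 397 to 634 and 1565 in endothelial cells, and from 45 and 33 to 60 and 26 in E13.5 pericytes. No paired analysis was possible because values per library were not analysed here, and for that reason leaving out replicates and the count models were not run. Depth per library is unknown, so it is also unknown how far low means such as those of Igfbp6 and Igfbp7 are limited by counting.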

Other observations

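Summed over the family, ligand and binding protein RNA were both lower in E11.5 mutants. The level per kb of Igf1 and Igf2 together was 4078 in controls and 2617 in mutants (a ratio of 0.642), and that of the 5 binding proteins measured was 8504 and 5843 (0.687), while the receptors summed to 588 and 546 (0.928). In E13.5 pericytes the ratios were 1.02, 1.03 and 1.03, and in endothelial cells 0.925, 0.973 and 0.838 for ligands, binding proteins and receptors. Binding protein RNA exceeded ligand RNA per kb in E11.5 control pericytes (8504 against 4078), whereas ligand RNA was higher in E13.5 control pericytes (36382 against 19039), and the sums were close in endothelial cells (5734 for ligands and 5953 for binding proteins). These sums have no error of their own, since spread per library was not analysed here.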
